A study of Mus musculus with 6 samples.

Results

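The epidermal differentiation complex (EDC) is a gene cluster on mouse chromosome 3, and its open chromatin was read here from ATAC-seq peak lists of 3 sorted skin cell populations. Its members were taken by position and name as the protein-coding genes between 90.4 and 94.0 Mb (mm10) with symbols starting in Lce, Sprr or S100a, plus Flg, Flg2, Lor, Ivl, Rptn, Hrnr, Tchh, Tchhl1, Crnn and Smcp. These were 60 of 21887 protein-coding genes. Peaks of the 6 lists that overlapped were merged into 75738 consensus regions, of which 62802 had a protein-coding gene span within 50 kb. For 107 of these the nearest gene was an EDC member, and they are called EDC regions below.

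EDC genes encode the building blocks of the cornified envelope, the cross-linked protein shell that replaces the membrane of dying keratinocytes at the skin surface. Basal keratinocytes, which carry α6-integrin, are known to transcribe most of these genes weakly, and transcription rises as cells move into the spinous and granular layers. The cluster holds loricrin and involucrin, the small proline-rich (Sprr) and late cornified envelope (Lce) proteins, the fused-type S100 proteins such as filaggrin, and the small calcium-binding S100 proteins.

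All 6 libraries came from back skin of C57BL/6 mice with the genotype TNC-CREER and tdTomato, in which a tamoxifen-dependent Cre driven by Tnc switches on a red reporter. Tamoxifen was given to every mouse, controls included, on days 51 and 52 after birth (100 µg per g), and skin was taken on day 60. Touch dome cells (keratinocyte patches beside hair follicles) were sorted as positive for EPCAM, SCA1, α6-integrin and the reporter. Interfollicular epidermis (IFE) cells had the same surface markers without the reporter, and hair follicle (HF) cells had EPCAM and α6-integrin but neither SCA1 nor the reporter. Each population had 2 libraries of 50000 sorted cells, and no label ties a library to an animal, so p-values here measure the spread between libraries, which can be technical. Because the reporter depends on Tnc and on recombination, touch dome cells that did not recombine would fall in the IFE gate.

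The lists held 50153 to 59250 peaks per library, with no read count or peak height, which leaves the depth unknown, and where a list has no peak it shows only that the caller reported none. In cells sorted in bulk, a weaker signal in every cell and a full signal in fewer cells cannot be told apart. The keratinocyte genes Krt5, Krt14, Epcam, Itga6, Itgb4 and Trp63 all had regions open in every library, 50 to 64 regions in all. Regions at 5 hair follicle genes numbered 30 and 36 in touch dome, 22 and 22 in IFE and 42 and 44 in HF. Among them Krt15 had 2 in every library, and Sox9 had 5 and 6, 6 and 7, and 8 and 7. At 5 genes of the granular and later layers the regions numbered 26 and 27, 27 and 27, and 20 and 21. Tgm3 gave most of this difference, with 13 in every touch dome and IFE library and 7 and 8 in HF. Krt1 and Cdsn were also lower in HF, Krt10 was higher in HF (4 against 3), and Casp14 had 4 in every library but touch dome replicate 1 (3). Among other cell types, immune genes had 2 regions in each touch dome library, 1 in each IFE library and 0 in HF, with Cd207 and Itgax at 0 throughout. Fibroblast genes had 13 and 16 regions in touch dome, 11 and 8 in IFE and 15 and 15 in HF. Of these, Dpt was lowest in HF, with 5 and 6, 6 and 5, and 2 and 3. Pdgfra was highest in HF, with 3 and 4, 3 and 2, and 7 and 6, and Col1a1 and Col1a2 were lowest in IFE. Endothelial genes had 12 and 14, 15 and 16, and 17 and 16, with Cdh5 and Kdr at 0. Melanocyte genes had 17 and 20 in touch dome, 12 and 13 in IFE and 21 and 21 in HF, with Tyr and Kit at 0. Most of these lay at Mitf, with 14 and 17, 10 and 11, and 18 and 18. Merkel cell genes had 2 and 3 in touch dome, 5 and 2 in IFE and 2 and 2 in HF. The part of these cells in the EDC results was not tested.

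The number of open EDC regions overlapped between the 3 populations. A peak was present at 71 and 87 EDC regions in the touch dome libraries, at 83 and 74 in IFE and at 71 and 76 in HF. The means were 79.0 ± 11.3, 78.5 ± 6.36 and 73.5 ± 3.54 (SD, n = 2 each). Touch dome exceeded IFE by 0.5 regions (two-sided exact permutation p = 1.00), touch dome exceeded HF by 5.5 (exact permutation p = 1.00) and IFE exceeded HF by 5 (exact permutation p = 0.667). The smallest p that 2 against 2 libraries allow is 0.333. Without touch dome replicate 2, whose list was the longest of the 6, the first difference was -7.5 and the second -2.5, and without IFE replicate 2 the first was -5.

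The length covered by peaks in EDC regions was lowest in the HF libraries. They covered 76148 and 92897 bp in touch dome, 87868 and 80859 bp in IFE and 74146 and 73845 bp in HF. Both HF values lay below all 4 others, by 10527 bp on average against touch dome and 10368 bp against IFE (exact permutation p = 0.333 for each, the smallest possible). Touch dome exceeded IFE by 159 bp (exact permutation p = 1.00), and the value was -8215.5 bp without touch dome replicate 2 and -3345.5 bp without IFE replicate 2. Covered length was not summed over all regions near genes, so this difference has no background. The median length of all peaks was 862 and 912 bp in touch dome, 936 and 896 bp in IFE and 909 and 858 bp in HF. In HF, EDC regions were open in 66.4% and 71.0% of cases, while 72.4% and 74.8% of all 62802 regions near genes were open in the same libraries. In touch dome the pairs were 66.4% and 81.3% against 66.5% and 78.4%, and in IFE 77.6% and 69.2% against 71.2% and 68.7%.

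Of the 107 EDC regions, 54 (50.5%) had a peak in all 6 libraries, against 48.2% of all regions near genes, so constant access was about as frequent here as elsewhere. A peak in 1 library alone was found at 14 regions (13.1%, against 13.1%). The 54 shared regions had a median width of 1315 bp, the 39 regions open in some libraries 681 bp, and the 14 of a single library 374 bp. Of the 27 EDC regions that touched a gene span, 21 were open in all libraries (77.8%, against 51.6% of all regions in a gene span). Up to 10 kb away 14 of 35 were (40.0%, against 41.8%), and farther out 19 of 45 (42.2%, against 39.5%). Only 25.2% of EDC regions touched a gene span, against 69.5% of all regions near genes, and 42.1% lay more than 10 kb from the nearest gene, against 17.9%. Many EDC gene spans were short, such as Sprr4 (231 bp) and Lce3d (1185 bp), and the longest was S100a3 (42351 bp). Span length was not matched, so the shares by distance are not compared at like gene length.

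Of the 60 members, 35 (58.3%) had at least 1 region, against 70.1% of all protein-coding genes. The median was 1.0 region per gene in both sets, and the mean was 1.78 for EDC members and 2.87 for all genes.

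**Figure D1:**
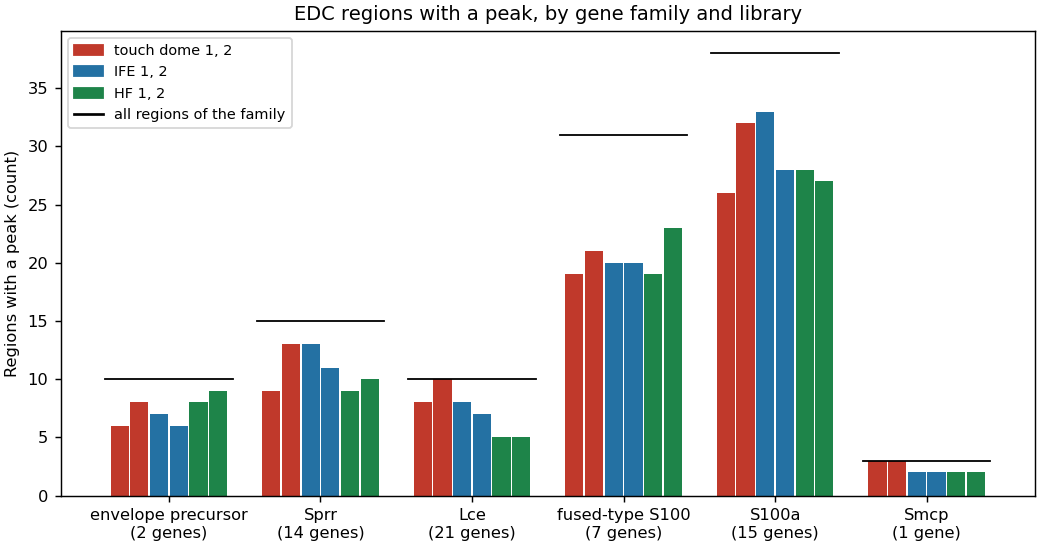
Number of EDC regions with a peak (vertical axis, count) for each gene family (horizontal axis), with 1 bar per library coloured by population and a black line at the number of regions of the family. Lce regions with a peak number 8 and 10 in touch dome, 8 and 7 in IFE and 5 and 5 in HF, and both HF values lie below the 4 others in this family alone. Envelope precursor regions number 6 and 8 in touch dome, 7 and 6 in IFE and 8 and 9 in HF.

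Among the envelope precursors, loricrin (Lor, chr3:92080271-92083142), the most abundant envelope protein, had 5 regions and involucrin (Ivl, chr3:92570899-92573790), an early scaffold of the envelope, had 5. Lor had 2 regions open in all 6 libraries, one within the gene (chr3:92080528-92082280) and one 9.9 kb away. The peak within Lor was longest in HF, at 1568 and 1749 bp, against 1474 and 1544 bp in IFE and 1388 and 1383 bp in touch dome. Of the others, a region 20.9 kb from Lor was open in both HF libraries alone, with 358 and 737 bp. One 7.75 kb away was open in both HF libraries (567 and 615 bp) and in touch dome replicate 2 (449 bp), and one 19.89 kb away in HF replicate 2 alone. All 5 Lor regions were therefore open in HF replicate 2, 4 in HF replicate 1, 2 in each IFE library and 2 and 3 in touch dome. Ivl had 4 regions open everywhere, with 2 of them in the gene span and 2 at 15.73 and 29.78 kb. The fifth, 5.05 kb from Ivl, was open in IFE replicate 1 (364 bp) and touch dome replicate 2 (352 bp).

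Promoters were mostly without a peak. RefSeq (GRCm38.p6) gave a promoter window, 250 bases before to 50 after the start, for 56 of the 60 members. Of these, 44 (78.6%) had no peak in any library and 10 (17.9%) had a window open in all 6. Among 17492 protein-coding genes with such a window, 41.4% had none and 53.0% were open in all 6. Taking 1 kb around either gene end for the 4 members without a window, 12 and 13 members were open in touch dome, 13 and 13 in IFE and 12 and 13 in HF. The differences were -0.5 for touch dome minus IFE, 0 for touch dome minus HF and 0.5 for IFE minus HF (exact permutation p = 1.00 for each). Among the 12 members open in all libraries, 8 were S100a genes, and the other 4 were Ivl, Sprr1a, Lce6a and Crnn.

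A window was open in some libraries alone at 3 members: 1 of the 4 windows of S100a3, in both IFE libraries and no other (another window of this gene was open in all 6), Lce1b in touch dome replicate 2 and both IFE libraries, and S100a8 in HF replicate 2. These windows are printed with those of Lor, closed in every library, and of Ivl and Sprr1a, open in every library, to show which starts were open and which motifs they hold. Sprr1a was chosen after its values were seen. Each runs 5′ to 3′ on the strand of the gene, and capitals mark matches on either strand to the AP-1 motif TGANTCA, the TATA box TATAAA or the Grainyhead-like motif AACNGGTT.
S100a3, chr3:90599964-90600263, plus strand: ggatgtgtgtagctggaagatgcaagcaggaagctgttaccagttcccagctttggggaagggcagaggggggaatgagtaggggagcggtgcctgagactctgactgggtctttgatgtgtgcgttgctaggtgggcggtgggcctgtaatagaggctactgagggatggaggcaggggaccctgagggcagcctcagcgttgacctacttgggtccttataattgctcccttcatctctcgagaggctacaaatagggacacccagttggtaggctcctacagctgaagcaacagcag
S100a8, chr3:90668821-90669120, plus strand: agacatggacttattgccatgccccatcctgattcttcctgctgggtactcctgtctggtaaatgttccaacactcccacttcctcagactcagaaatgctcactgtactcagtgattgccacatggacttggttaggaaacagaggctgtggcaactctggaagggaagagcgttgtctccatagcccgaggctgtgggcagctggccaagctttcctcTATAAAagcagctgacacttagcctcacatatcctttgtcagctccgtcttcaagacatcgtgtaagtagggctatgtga
Lce1b, chr3:92656877-92657176, minus strand: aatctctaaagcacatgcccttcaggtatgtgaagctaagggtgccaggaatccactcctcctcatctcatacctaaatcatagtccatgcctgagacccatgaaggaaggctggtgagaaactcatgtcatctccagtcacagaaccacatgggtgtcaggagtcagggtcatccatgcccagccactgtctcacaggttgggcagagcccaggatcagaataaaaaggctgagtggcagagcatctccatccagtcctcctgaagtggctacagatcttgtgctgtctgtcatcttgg
Lor, chr3:92083093-92083392, minus strand: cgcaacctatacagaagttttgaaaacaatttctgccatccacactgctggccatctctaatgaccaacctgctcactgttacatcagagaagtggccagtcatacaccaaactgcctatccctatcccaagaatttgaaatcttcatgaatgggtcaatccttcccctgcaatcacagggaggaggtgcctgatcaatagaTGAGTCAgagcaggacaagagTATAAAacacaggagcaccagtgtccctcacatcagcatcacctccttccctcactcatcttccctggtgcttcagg
Ivl, chr3:92573686-92573985, minus strand: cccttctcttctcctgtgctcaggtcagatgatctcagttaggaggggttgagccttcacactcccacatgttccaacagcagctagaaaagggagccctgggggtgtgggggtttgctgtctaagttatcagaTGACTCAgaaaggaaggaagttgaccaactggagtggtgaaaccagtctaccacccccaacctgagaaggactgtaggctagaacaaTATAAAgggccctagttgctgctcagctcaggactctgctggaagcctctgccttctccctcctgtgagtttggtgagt
Sprr1a, chr3:92485832-92486131, minus strand: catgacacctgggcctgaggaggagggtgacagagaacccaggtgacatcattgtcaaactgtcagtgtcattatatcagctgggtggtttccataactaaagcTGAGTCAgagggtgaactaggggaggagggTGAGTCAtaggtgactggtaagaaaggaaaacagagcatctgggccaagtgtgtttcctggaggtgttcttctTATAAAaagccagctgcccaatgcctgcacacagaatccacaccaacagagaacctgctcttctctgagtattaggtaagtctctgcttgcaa

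The Sprr1a window held 2 AP-1 matches and 1 TATA box, and the Ivl and Lor windows held 1 of each. The S100a8 window had 1 TATA box and no AP-1 match, and the S100a3 and Lce1b windows had neither. Over the 60 windows of EDC members, 19 (31.7%) held an AP-1 match, against 7.81% of all 32851 promoter windows of that length. A TATA box was found in 25 (41.7%, against 13.6%), the Krüppel-like factor core CACCC in 34 (56.7%, against 57.5%) and the Grainyhead-like motif in 3 (5.0%, against 2.09%). AP-1 matches were present in 4 of the 10 windows open in all libraries and in 15 of the 47 windows open in none. For the TATA box these counts were 4 and 20, and for CACCC 6 and 26. Sister genes such as those of the Sprr2 group carry related promoters, so the windows are not independent, and a match describes letters only.

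**Figure D2:**
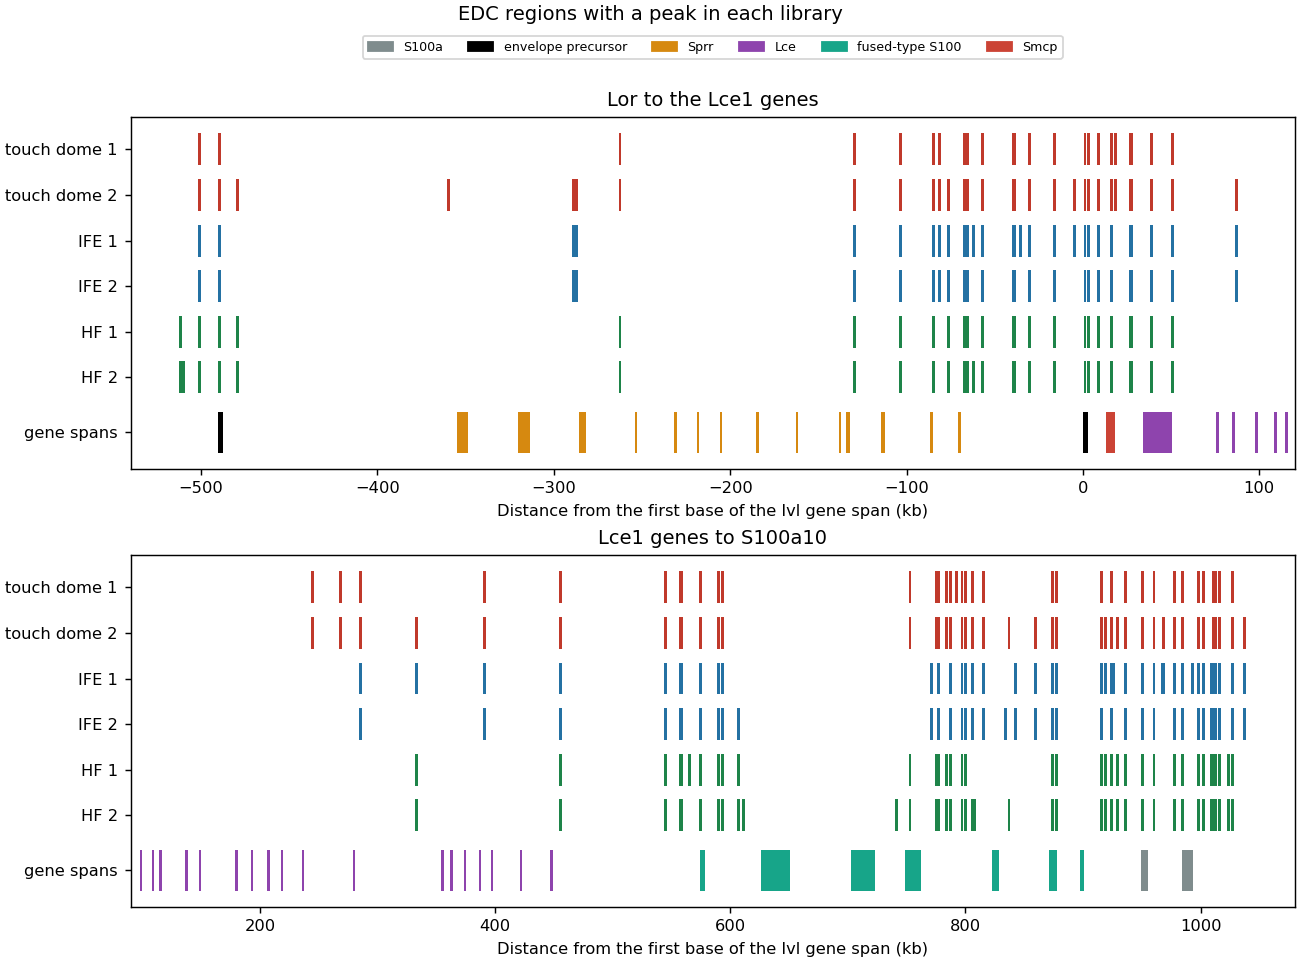
EDC regions with a peak in each library (rows, coloured by population) and EDC gene spans (bottom row, coloured by family), by distance in kb from the first base of the Ivl gene span (horizontal axis). Bars have a minimum drawn width, and the S100a genes before Lor are outside the range shown. The stretches from Sprr2b to Sprr1b (131 kb), from Lce1a2 to Lce1k (157 kb) and over Flg2 and Flg (130 kb) hold no bar in any library.

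The Sprr family, whose small proline-rich proteins cross-bridge the envelope, had 14 genes and 15 regions. Most of its regions lay near Sprr1a, Sprr3 and Sprr4, and most of the Sprr2 genes had none. Sprr4 led with 7 regions, 4 of them open in all libraries, followed by Sprr1a and Sprr2a3 with 2 each. A region 30.16 kb from Sprr4 (chr3:92530650-92532990) had peaks of 2240 and 2268 bp in touch dome and 2102 and 2323 bp in IFE, but only 928 and 776 bp in HF. A region 1.52 kb from Sprr1b was also longer in touch dome (919 and 1132 bp) and IFE (864 and 861 bp) than in HF (475 and 673 bp). Neither set of values overlapped with HF. The shared regions 7.77 kb from Sprr3 and 4.14 kb from Sprr4 had the same order. HF peaks were instead longer than IFE peaks at the shared region in Sprr1a (1238 and 1323 bp against 1125 and 1140 bp). The same held 2.61 kb from Sprr4 (605 and 489 bp against 455 and 478 bp). Touch dome overlapped HF at both, and all populations overlapped 12.57 kb from Sprr4. Near Sprr1a, a region 2.84 kb away was open in all touch dome and IFE libraries (328 to 388 bp) and in neither HF library. The 2 regions of Sprr2a3, at 3.58 and 2.01 kb, were open in both IFE libraries and touch dome replicate 2. Sprr2b had a region 7.74 kb away (chr3:92307607-92308968) with the opposite order, open in HF (1362 and 1061 bp) and touch dome (795 and 969 bp) and closed in IFE.

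Without a region were Sprr2a2, Sprr2d, Sprr2e, Sprr2f, Sprr2h, Sprr2i and Sprr2k. A stretch of 131 kb (chr3:92308969-92440338) held 8 Sprr genes and no peak in any library. In the whole cluster 7 stretches of over 100 kb had no region, and 21 of 60 EDC members (35.0%) lay wholly inside one, against 21.1% of all protein-coding genes. Reads from near-identical copies can be lost or misplaced, so the promoter windows were compared. The windows of Sprr2a1 and Sprr2a2 shared 100% of their runs of 50 bases with another EDC window and that of Sprr2a3 shared 88.8%, so peaks near these 3 genes are uncertain. The other Sprr2 windows shared 0%, the Lce1g and Lce1h windows shared 2.79%, and the remaining Lce windows shared 0%. Gene bodies, runs with a mismatch and copies outside these windows were not compared. Loss of reads in the stretches without a peak was therefore not tested.

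The Lce family, whose products are added late to the envelope, had the fewest regions per gene, with 10 regions at 21 genes. Lce regions with a peak numbered 8 and 10 in touch dome, 8 and 7 in IFE and 5 and 5 in HF, where both values were lowest. Of all regions near genes, 66.5% and 78.4%, 71.2% and 68.7%, and 72.4% and 74.8% were open in these libraries. In no other family were both HF values below all others. Envelope precursor regions numbered 6 and 8 in touch dome, 7 and 6 in IFE and 8 and 9 in HF. Of 14 Lce genes without any region, 9 lay in a stretch of 157 kb (chr3:92657504-92814564) that holds 10 Lce1 genes. These 9 were Lce1a2, Lce1c, Lce1d, Lce1e, Lce1f, Lce1g, Lce1h, Lce1i and Lce1j, and the others were Lce1a1, Lce3b, Lce3c, Lce3e and Lce3f. Lce6a had 3 regions and Lce1m 1, and these 4 were open in all libraries. At the start of Lce6a the peak was 943 and 903 bp long in touch dome and 988 and 954 bp in IFE, against 637 and 516 bp in HF. Lce3a had 1 region, 21.4 kb away and open in touch dome replicate 2, IFE replicate 1 and both HF libraries.

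The remaining 5 Lce regions were closed in both HF libraries. A region 3.96 kb from Lce1l was open in touch dome (713 and 1040 bp) and IFE (1031 and 622 bp). One 2.08 kb from Lce3d was open in touch dome (340 and 640 bp) and IFE (538 and 459 bp). The region at the Lce1b start, 509 bp wide, was open in both IFE libraries and touch dome replicate 2, with peaks of 487 to 498 bp.

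The other 2 were open in touch dome alone, at Lce1k (6.67 kb away, 457 and 719 bp) and Lce1l (9.64 kb away, chr3:92838537-92840306, 1025 and 1687 bp). A short region in the span of Smcp, a gene for a sperm mitochondrial protein that lies among the EDC genes, was the third of this kind, with 363 and 308 bp. These 3 were 2.80% of EDC regions, where 0.967% of all regions near genes had this pattern of both touch dome libraries and no other. The Lce1l region was the widest of the 3 and spanned 1770 bp. Of the 607 regions of this pattern in the genome 12 (1.98%) were at least as wide, with a median of 644 bp. The Lce1k and Smcp regions spanned 719 and 363 bp. The share at least as wide as the widest EDC region was 5.40% to 50.2% in the other patterns, which are counted below. The Lce1l region was picked for its width, so its share is not a test. Smcp had 2 further regions, both open in all libraries.

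The fused-type S100 genes encode large filament-binding proteins of the granular layer and the hair follicle sheath. They had 31 regions at 7 genes, 13 of them open in all libraries. Flg (chr3:93273546-93293689), which encodes filaggrin, the keratin-bundling protein, had no region in any library. Flg2, its neighbour, had 2 short ones, at 20.23 kb (346 bp in IFE replicate 2, 529 and 429 bp in HF) and at 15.93 kb (HF replicate 2 alone). Both gene spans lay in a stretch of 130 kb without a peak (chr3:93181343-93311446). Crnn, the gene of cornulin, had 6 regions, of which 5 were open in all libraries and 1 in HF replicate 1 alone.

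Hrnr, which encodes the filaggrin-like hornerin, had 8 regions and the most that differed between populations. A region within the gene (chr3:93322586-93323565) had peaks of 614 and 767 bp in touch dome and 980 and 908 bp in HF and none in IFE. Regions at 11.46 and 20.26 kb had the same pattern. At 11.46 kb the peaks were 426 and 357 bp in touch dome and 765 and 776 bp in HF, and at 20.26 kb they were 366 and 462 bp and 638 and 667 bp. In all 3 the HF peaks were longer than the touch dome peaks, with no overlap. Another region, 7.64 kb away, was open in IFE alone (558 and 314 bp).

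Rptn, the gene of repetin, also had 8 regions. One 7.69 kb away was open in touch dome (541 and 598 bp) and IFE (593 and 581 bp) and closed in HF, and one 12.54 kb away was open in IFE alone (507 and 502 bp). Only 2 of the 8 Rptn regions were open in all libraries. Tchh, which encodes trichohyalin of the inner root sheath, had 2 regions inside the gene, both open in all 6 libraries. Their lengths in HF (1425 and 1626 bp, and 862 and 849 bp) overlapped those in touch dome (1552 and 1565 bp, and 722 and 860 bp). A region 12.58 kb from Tchh was open in both IFE libraries and touch dome replicate 2. Tchhl1 had 4 regions, of which the one 13.22 kb away was 654 and 693 bp long in touch dome and 953 and 734 bp in IFE, against 380 and 503 bp in HF.

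The S100a genes encode small calcium-binding proteins, many made in tissues other than skin, and they had the most regions, 38 at 15 genes, 22 of them open in all libraries. S100a10, whose product binds annexin A2, had 12 regions and S100a11, whose product is cross-linked into the envelope, had 6. Both had a wide region at the gene, open in all 6 libraries, S100a10 with 2653 to 2838 bp and S100a11 with 2841 to 3001 bp. At S100a11, a region 3.82 kb away had peaks of 619 and 1019 bp in touch dome and 680 and 767 bp in IFE, against 310 and 303 bp in HF. Another, 20.72 kb away, was open in HF (756 and 965 bp) and touch dome replicate 2 (866 bp) and closed in IFE.

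At S100a10, 8 regions were open in all libraries, and 3 of those had peaks at least 1.5 times longer in IFE than in HF without overlap. A region 28.56 kb away was open in HF alone (509 and 564 bp). One 42.72 kb away was open in IFE (783 and 468 bp) and touch dome replicate 2 (996 bp). The region 14.58 kb away was open in IFE (494 and 572 bp) and HF (633 and 667 bp) and closed in touch dome, the only EDC region of that pattern.

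S100a3 had 5 regions, all open in every library. One within the gene span (chr3:90597538-90598563) was longest in HF, with 1026 and 944 bp, intermediate in touch dome, with 697 and 748 bp, and shortest in IFE, with 402 and 484 bp. Its neighbour (chr3:90599511-90601531) had 1423 and 1691 bp in IFE against 1022 and 984 bp in touch dome and 1228 and 888 bp in HF, and it includes the S100a3 start that was open in IFE alone. The long S100a3 span contains that of S100a2, which touched no region.

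S100a7l2, a relative of the psoriasin genes, had 2 regions, at 33.68 and 29.5 kb, both open in touch dome and IFE and closed in HF. The first had 515 and 1650 bp in touch dome and 1576 and 1640 bp in IFE. S100a8 and S100a9, the calprotectin genes known from inflamed skin, had 1 and 2 regions, none of them open in all libraries. S100a7a had 3, of which none was open in all. S100a2, S100a5 and S100a13 had no region of their own, although the S100a13 start lies in the region counted under S100a1. S100a1, S100a4, S100a6, S100a14 and S100a16 had 7 regions together, of which 1 at S100a16 was not open in every library.

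Counted over all families, 26 EDC regions (24.3%, against 25.9% of all regions near genes) were open in both libraries of one population and neither library of another. Touch dome against IFE gave 7 regions open in touch dome (6.54%, against 4.48% of all regions near genes), at Hrnr (3), Sprr2b, Smcp, Lce1k and Lce1l. The reverse gave 3 (2.80%, against 1.82%), at Hrnr, Rptn and S100a10. Of the 7, the 4 at Hrnr and Sprr2b were also open in both HF libraries. These shares are near the background.

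Taken over all 6 libraries, beside the 3 EDC regions open in touch dome alone, 2 were open in IFE alone (1.87%, against 1.22%) and 2 in HF alone (1.87%, against 6.22%). Both other populations but not HF were open at 6 (5.61%, against 6.31%), touch dome and HF but not IFE at 4 (3.74%, against 3.28%), and IFE and HF but not touch dome at 1 (0.935%, against 0.336%).

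Touch dome against HF gave 9 regions open in touch dome (8.41%, against 8.02%) and 4 open in HF (3.74%, against 7.26%). The 9 lay at Lce1l (2), S100a7l2 (2), Sprr1a, Smcp, Lce1k, Lce3d and Rptn, and the 4 at S100a10 (2), Lor and Flg2. IFE against HF gave 13 open in IFE (12.1%, against 9.91%) and 8 open in HF (7.48%, against 12.8%). The 13 included 2 each at S100a7l2, Sprr2a3 and Rptn and 1 each at Sprr1a, Lce1b, Lce1l, Lce3d, Hrnr, Tchh and S100a10. The 8 were 3 at Hrnr, 2 at Lor and 1 each at Sprr2b, S100a11 and S100a10. Comparisons with a population in common share its libraries.

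**Figure D3:**
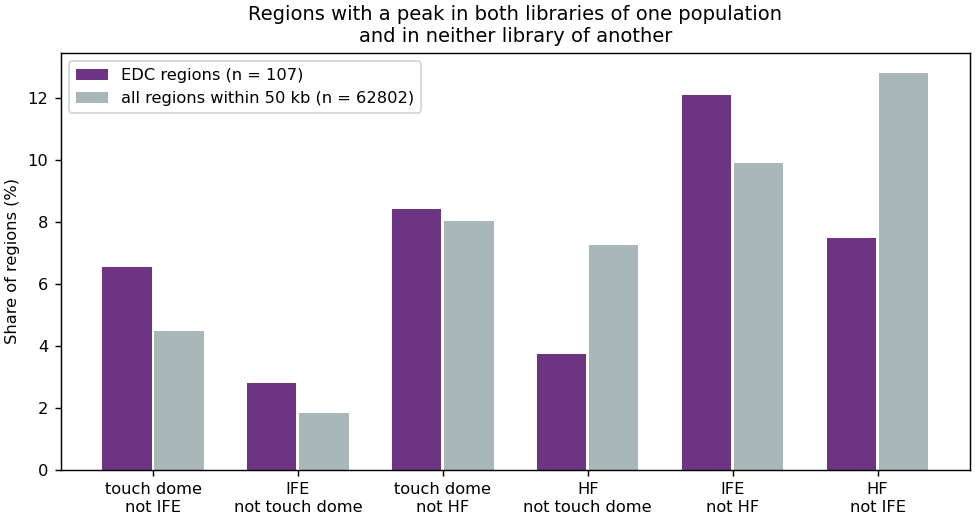
Share of regions (vertical axis, %) with a peak in both libraries of the first population and in neither library of the second (horizontal axis), for the 107 EDC regions and for all 62802 regions within 50 kb of a gene. The EDC share is lower for the regions open in HF, at 3.74% and 7.48% against 7.26% and 12.8%, and the other 4 shares are above those of all regions.

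**Figure D4:**
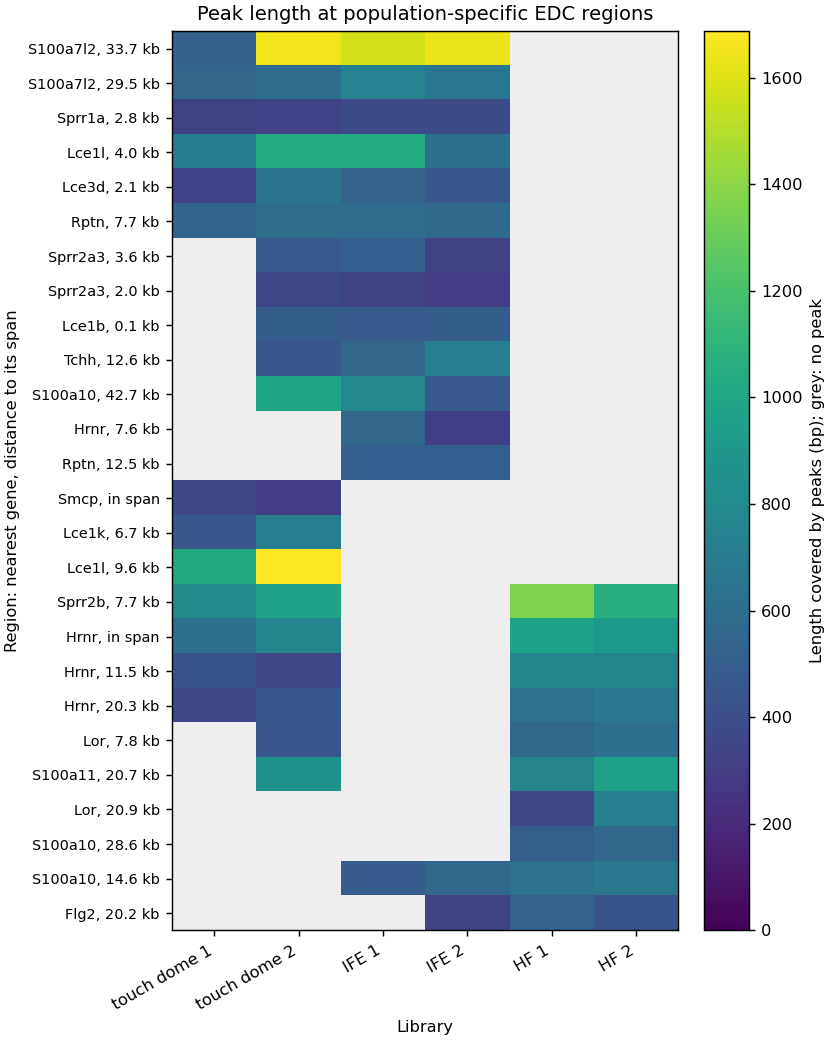
Length covered by peaks (colour, bp; grey where there was no peak) in each library (columns) at the 26 EDC regions (rows, named by nearest gene and distance) that were open in both libraries of one population and neither of another. The first 13 rows are open in both IFE libraries and closed in HF, and 3 rows are open in touch dome alone.

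Leaving out a library loosens the criterion for its population and adds regions. Shares over all regions near genes were not counted with a library left out, so the counts that follow have no background. Without touch dome replicate 1, touch dome had 12 regions that IFE lacked and 20 that HF lacked. Without touch dome replicate 2, IFE had 9 and HF had 10 that touch dome lacked. Without IFE replicate 2, IFE had 9 that touch dome lacked and 22 that HF lacked. Without IFE replicate 1, IFE had 5 that touch dome lacked. Without HF replicate 1, HF had 10 that touch dome lacked and 14 that IFE lacked.

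At the 54 EDC regions open everywhere, peak length differed mainly between HF and the other populations. IFE peaks were at least 1.5 times longer than HF peaks on average, with no overlap between libraries, at 11 regions (20.4%, against 8.43% of the 30263 shared regions near genes). The reverse was found at 1 (1.85%, against 5.72%), the S100a3 region described above. Touch dome peaks were longer than HF peaks by this rule at 9 regions (16.7%, against 6.55%) and shorter at 0 (0.00%, against 3.16%). Touch dome against IFE gave 1 region in each direction (1.85% each, against 2.40% longer and 1.24% shorter in touch dome), both at S100a3. Without IFE replicate 1 there was 0 longer in touch dome. There were 2 longer in IFE without touch dome replicate 2, and 0 without IFE replicate 2. Over all 54 regions the median ratio of mean lengths was 1.08 for IFE over HF (1.03 over all shared regions), 1.05 for touch dome over HF (1.01) and 0.966 for touch dome over IFE (0.984). The 1.5-fold rule was chosen after the data were seen, and peak length was not tested per region.

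**Figure D5:**
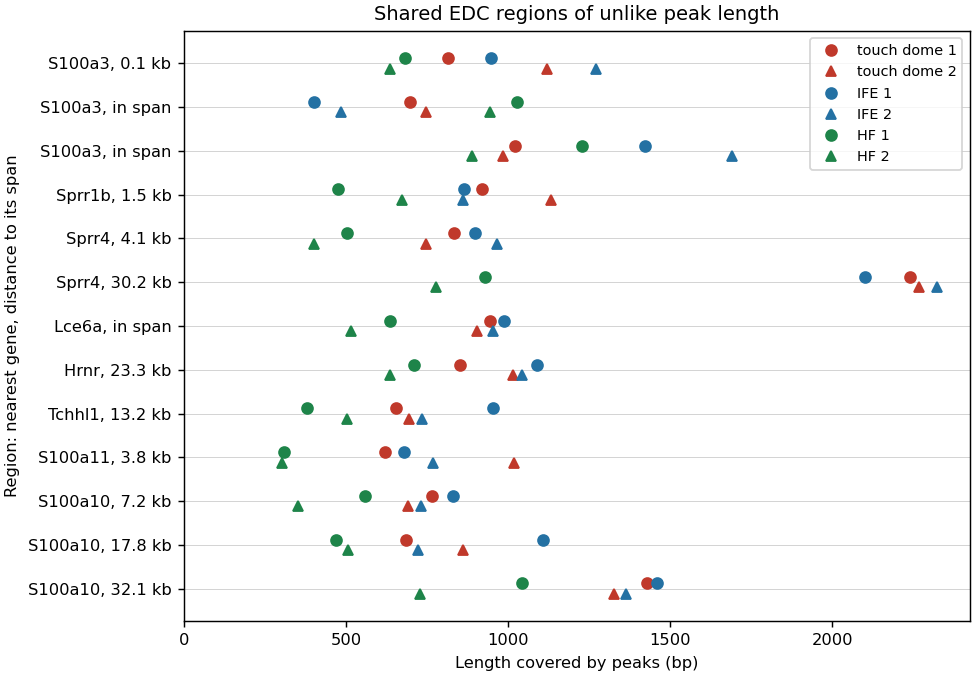
Length covered by peaks (horizontal axis, bp) in each library (colour for the population, circle for replicate 1 and triangle for replicate 2) at the 13 shared EDC regions where the mean lengths of some pair of populations differed at least 1.5 times without overlap. HF points lie to the left of the others at 11 rows, most clearly 30.2 kb from Sprr4 and 3.8 kb from S100a11.

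Within the EDC regions, libraries of one population resembled each other more than those of different populations on average over the 3 populations. The touch dome replicates, however, were about as close to each other as to IFE libraries. The Jaccard index, the shared over the joint length of 2 peak sets, was 0.839 between the IFE replicates, 0.828 between the HF replicates and 0.768 between the touch dome replicates. Between populations it was 0.763 ± 0.0162 for touch dome and IFE, 0.678 ± 0.0356 for touch dome and HF and 0.643 ± 0.0242 for IFE and HF (SD over 4 library pairs each). Both touch dome libraries were closer to an IFE library than to each other, replicate 1 to IFE replicate 2 (0.782) and replicate 2 to IFE replicate 1 (0.770). The same-numbered touch dome and IFE libraries were less close, at 0.747 for replicate 1 and 0.752 for replicate 2. The mean within populations exceeded that between them by 0.117, the highest of 15 pairings of the libraries, with the next at 0.0942 (one-sided exact permutation p = 0.0667, the smallest possible). It was not the highest without IFE replicate 1 (0.104, exact permutation p = 0.133) or without IFE replicate 2 (0.112, exact permutation p = 0.133).

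The 19 other protein-coding genes inside the interval had 30 regions, 15 of them (50.0%, against 48.2% of all regions near genes) open in all libraries. They were open at 23 and 26 regions in touch dome, 27 and 23 in IFE and 19 and 19 in HF. In each comparison with HF, 6 of their regions were open in touch dome or IFE and 1 in HF, and between touch dome and IFE there were 0 in either direction. Lelp1, between Lor and the Sprr2 genes, had 6 regions, of which 6 and 5 were open in touch dome, 5 and 4 in IFE and 2 and 2 in HF. Prr9, beside Lor, had 3 in each HF library and 2 in every other.

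Barrier genes outside the member list (26 genes, among them keratins, transglutaminases and lipid enzymes, with a few inside the interval) had 137 regions, 71 of them open everywhere. Touch dome had 22 that HF lacked, and HF had 10 that touch dome lacked; for IFE and HF the counts were 24 and 12, and for touch dome and IFE 5 and 2. For 14 regulators of the barrier programme the counts were 17 and 11, 19 and 15, and 6 and 1, of 137 regions. In the same order, these states held at 8.02% and 7.26%, 9.91% and 12.8%, and 4.48% and 1.82% of all regions near genes. Satb1, which encodes a chromatin organiser known to act on the EDC, had 7 and 8 open regions in touch dome, 7 and 6 in IFE and 3 and 3 in HF. Prdm1, which encodes the transcriptional repressor Blimp, had 8 and 9, 7 and 8, and 15 and 14. Zfp750 had no region assigned to it.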

How the data were processed

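The data were 6 deposited peak lists, 1 per library, giving peak coordinates and names but no score. MACS2 2.2.7.1, SAMtools 1.9, Bowtie2 2.4.5, Trim Galore 0.6.7 and the build mm10 are listed in the submitters' processing notes. For settings, read shifts and thresholds the sources used here give nothing. Since peaks were called per library, presence and length depend on a depth that is unknown.

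Groups came from the sample titles. Consensus regions joined peaks that overlapped by 1 bp or more, and a library was open where it had a peak. Each region went to the nearest RefSeq (GRCm38.p6) protein-coding gene span within 50 kb, with ties given to the span that starts first. Coordinates count from 1. A region was specific to a population when both of its libraries and neither of the other's had a peak. Summed counts, lengths and open promoters were compared by exact two-sided permutation over the 6 splits of 4 libraries, and single regions and family counts were not tested. Region building was tested on simulated peaks. Scripts used Python 3.11.15 and pandas 2.3.3.

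Members, gene lists and rules were chosen with earlier results of these data known. Named were Lor, Ivl and Flg, the 2 members per family with the most regions, members with a specific region and members without any. Others named here, and the single regions described at them, were chosen after their values were seen. Alternatives included other gene windows, wider or equally many peaks, and leaving out each library.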

Additional observations from a re-analysis of the deposited data

How the results depend on the processing

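With all libraries kept, the differences between populations in open EDC regions kept their direction except for touch dome minus IFE, which was -5.5 regions and -2134 bp with equal numbers of the widest peaks per library and 0 regions when peaks had to cover 50% of a region. With the wider 50% of peaks, specific EDC regions numbered 3 (touch dome not IFE), 0 (IFE not touch dome), 3 (touch dome not HF), 2 (HF not touch dome), 6 (IFE not HF) and 3 (HF not IFE). In this setting 28 regions were open in all libraries, and every count of peaks at least 1.5 times longer was 0. The setting drops short peaks, so regions with short peaks in a population are no longer shared, and these counts of longer peaks cannot show whether the differences held. With a gene window of 10 kb the counts were 1 for IFE not touch dome, 0 for HF not touch dome, 8 for IFE not HF and 3 for HF not IFE, 35 regions were open in all libraries, and peaks were longer than in HF at 5 regions in touch dome and 6 in IFE. With equal numbers of peaks, 4 regions were open in touch dome and not IFE, and longer peaks numbered 5 for touch dome over HF, 7 for IFE over HF and 0 for IFE over touch dome. When peaks had to cover 50% of a region, longer peaks numbered 1 for IFE over HF and 0 for the other pairs, since short peaks then no longer count. Open promoters differed by 0.5 for touch dome minus HF with the wider 50% of peaks, with equal numbers of peaks and with windows extended by 1 kb, which also gave 0.5 for touch dome minus IFE and 0 for IFE minus HF.

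Leaving out each library gave, for touch dome minus IFE, -7.5 to 8.5 open regions, -8215.5 to 8533.5 bp and -1 to 0 promoters. For touch dome minus HF it gave -2.5 to 13.5 regions, 2152.5 to 18901.5 bp and -0.5 to 0.5 promoters, and for IFE minus HF 0.5 to 10.5 regions, 6863.5 to 13872.5 bp and 0 to 1 promoters. Specific regions ranged from 7 to 12 (touch dome not IFE), 3 to 9 (IFE not touch dome), 9 to 20 (touch dome not HF), 4 to 10 (HF not touch dome), 13 to 22 (IFE not HF) and 8 to 14 (HF not IFE). Longer peaks ranged from 0 to 1 for touch dome over IFE and 0 to 2 for IFE over touch dome. The excess of similarity within populations ranged from 0.0828 to 0.158. The cause was not tested, except that dropping a library loosens the criterion for specific regions. Shares over all regions near genes were counted in the main setting alone, so the counts under the alternatives have no background.

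Same-numbered libraries were not taken as pairs. The difference in peak presence between replicate 1 and replicate 2 was taken at each region and correlated between populations. Over all regions this correlation was 0.0513 for touch dome and IFE, 0.00492 for touch dome and HF and 0.0605 for IFE and HF. Over EDC regions it was -0.231, 0.0910 and 0.0340. With the replicate number as a block the differences stayed 0.5, 5.5 and 5 open regions, 159, 10527 and 10368 bp, and -0.5, 0 and 0.5 promoters, and the exact permutation p for the covered length was 0.5 for both comparisons with HF. Depth is unknown, so the limit it sets could not be given. The alternatives for peak length and similarity, and the block for promoters, were chosen after seeing the data.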
